A study of Mus musculus with 4 samples.

Results

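Th1 cells with much or little CD30 on their surface were compared on 2 arrays, 1 for the CD30low and 1 for the CD30high population, out of 4 arrays in the series. The pair was chosen by the sample titles, and the values of every gene on it are described here by function and by gene family. Splenic CD4 T cells of the mouse were kept for 6 days in Th1 medium and then separated with a cell sorter. The medium of both populations held 30 U/ml of an IL-2 culture supernatant, 100 U/ml of IL-12 and 1 µg/ml of an antibody that blocks IL-4. The other 2 arrays came from CD30low and CD30high Th17 cells and are used here only to set values side by side. Their medium held IL-6, IL-1beta and IL-23 at 10 ng/ml each and antibodies against IFN-gamma and IL-4 at 10 µg/ml each, with neither IL-2 nor IL-12 named. The methods describe 6-day Th1 and Th17 cultures of T cells with a transgenic receptor for an ovalbumin peptide. Those cells were stimulated beside irradiated splenocytes depleted of T cells, but the arrayed cells were not named. Strain, age and the number of mice behind an array were not given in the labels. The methods give an age range for all mice and name more than 1 strain, without saying which was arrayed.

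The sources differ on the cells that entered the cultures. The labels call them CD44low CD62Llow for the CD30low sample and CD44low CD62Lhi for the CD30high sample, while the methods describe naive CD44low CD62Lhigh cells for all cultures. If the labels hold, a difference between starting cells cannot be told apart from a difference between CD30 gates. No group had a second array, so no difference has a replicate error or a p-value, and every ratio below describes these 2 RNA preparations.

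CD30 is a member of the TNF receptor superfamily that appears on T cells after activation and signals through TRAF adaptors to NF-kappaB. Th1 cells arise under IL-12 through STAT4 and the lineage factor T-bet, secrete IFN-gamma, and help macrophages and cytotoxic cells against microbes that live inside cells. The comparison asks which transcripts accompany a high CD30 level among effector cells.

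The array reports a signal for each probe set, a group of short probes against 1 transcript. A gene was represented by its brightest probe set, signals below 100 were raised to 100 before a log2 ratio of CD30high over CD30low was taken, and the 7813 genes with a signal of at least 300 on the brighter Th1 array were used. Such a ratio is a difference in signal between the arrays, and in bulk RNA fewer cells of a type cannot be told apart from less RNA per cell. Tnfrsf8, the gene of CD30 itself, was at 13.3 and 51.1, CD30low first. These are in the order of the sort, but both lie below 100 and give no fold. The Th1 label was checked against its markers, of which 8 of 9 reached 300 and none differed 2-fold, with a summed signal of 48850 in CD30low and 42567 in CD30high cells. All 8 named markers of T cell identity reached 300, with sums of 89410 and 74050.

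Markers of other cells were mostly dim. All 6 named markers of dendritic cells and all 7 of neutrophils were below 100 on both Th1 arrays, as were 8 of 10 of macrophages and 6 of 7 of fibroblasts and endothelium. Of the 8 named markers of regulatory T cells, 6 reached 300, many of which activated T cells also express, with sums of 26290 and 26609, while Foxp3 (24.6 and 95.3) and Gpr83 (58.7 and 88.4) were below 100. Of the B cell markers Cd79a, Cd22, Pax5, Blnk and Cr2 were below 100 on both arrays, yet the summed B cell signal was 5495 in CD30low and 2947 in CD30high cells, and nearly all of it was Ighm. Ighm, the heavy chain gene of IgM, read 5154 and 2444 on the CD30low and CD30high arrays, and a second bright probe set had 2073 and 1236. The signals of CD8 T and NK cell markers summed to 9348 and 7063, although Cd8a, Ncr1 and Klra8 were below 100. What share of any result below these cells contribute was not tested. The Y-linked genes Eif2s3y (1784 and 1640), Uty (398 and 310) and Kdm5d (506 and 341) were present on both Th1 arrays. So was Xist (14620.4 and 16222), and none of these genes differed 2-fold. Each Y-linked gene was dimmer and Xist brighter in CD30high cells. Whether the 2 populations differed in their share of male and female cells was not tested.

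Differences between the 2 Th1 populations were narrow. The median log2 ratio was -0.03 with an SD of 0.34 over the 7813 genes, 64% of them lay within 1.2-fold of equal signals, with 46.1% of ratios above 1 and 53.9% below. At least 2-fold apart were 100 genes (1.28%), with 62 higher (0.794%) and 38 lower (0.486%) in CD30high cells. At 1.5-fold the counts were 316 higher (4.04%) and 279 lower (3.57%). The spread depended on the signal, and so did the median. It was 0.06 for genes with a mean signal under 400 and -0.06 for those at 6400 or more. Among 979 genes with a mean signal under 400 the SD was 0.50 and 4.29% passed 2-fold, whereas among 683 genes with a mean signal of 6400 or more the SD was 0.21 and 0 passed. Of the 100 genes, 39 stayed under 600 even on their brighter array and 16 reached 2000.

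**Figure D1:**
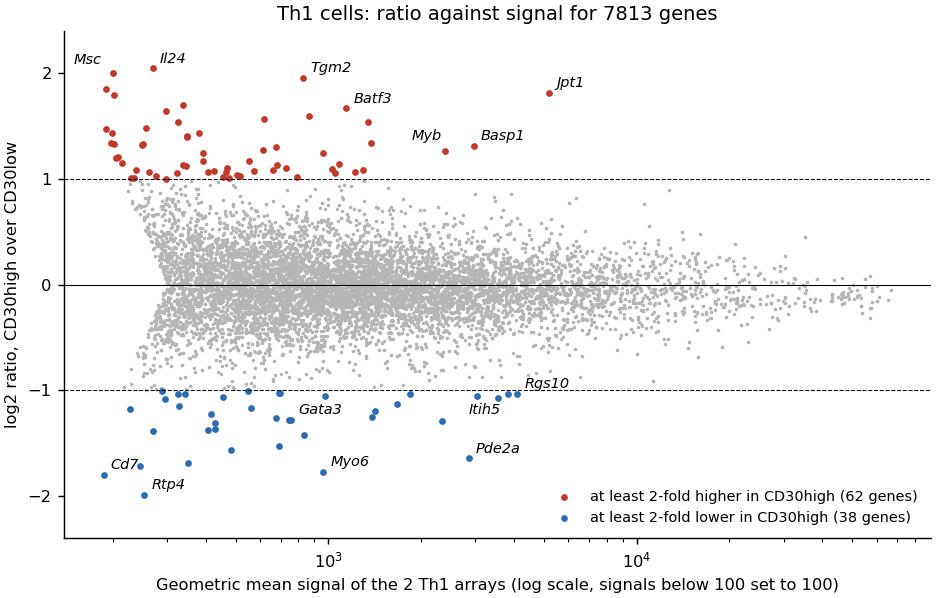
Each point is 1 of 7813 genes, with the geometric mean of its CD30low and CD30high Th1 signals on the x axis (log scale) and its log2 ratio on the y axis; the dashed lines mark 2-fold. The 62 higher (red) and 38 lower (blue) genes lie mostly at the dim end, where the grey cloud is widest, and Jpt1, Pde2a, Itih5 and Rgs10 are among the few bright ones.

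The only gauge of precision came from genes read by more than 1 probe set. Over 2926 such genes the SD per probe set was 0.226 on the log2 scale, so a gene near 2-fold stands a few such SDs from 0 while a log2 ratio of 0.2 does not. Both probe sets of these genes had a mean signal of at least 300. Ratios spread more widely among genes with a mean signal under 400 (SD 0.50), where this gauge may be too small. Of the 100 genes, 27 had a second probe set with a signal of at least 300. It pointed the same way in all 27, reached 1.5-fold in 23 and 2-fold in 14. Over all 2926 genes 66.7% of the pairs had the same sign, with a Pearson r of 0.50 across genes, which are not independent replicates. Probe sets of 1 array share the RNA and the hybridization, so they do not stand in for a second culture.

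**Figure D2:**
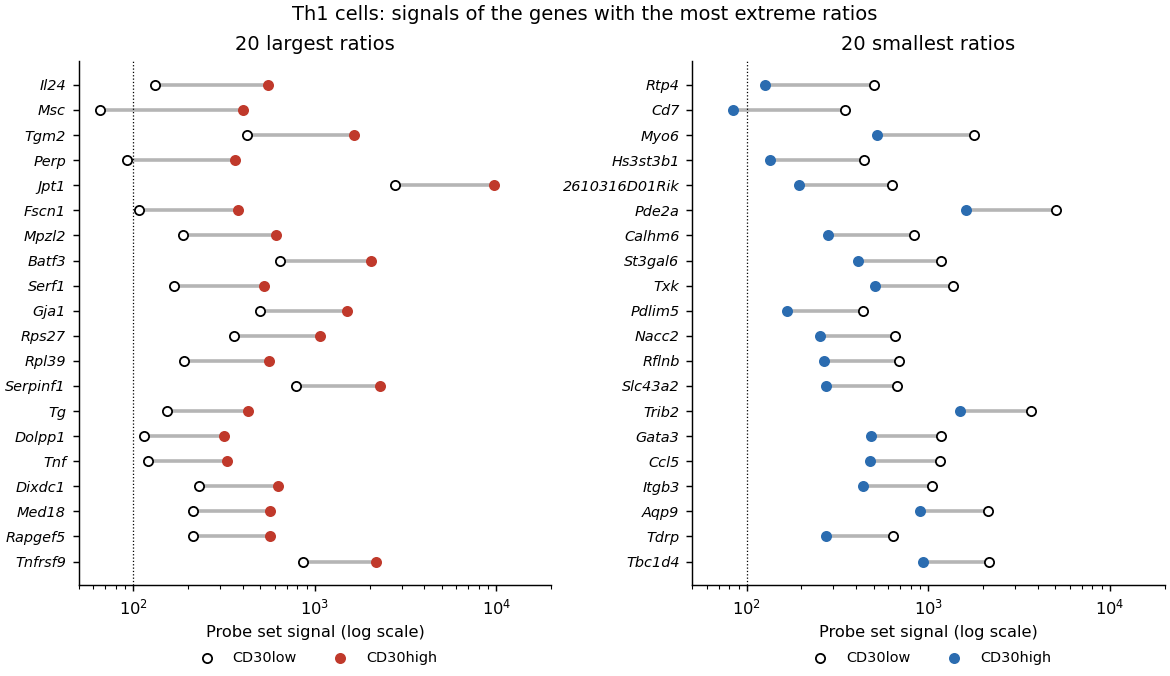
Probe set signals (x axis, log scale) of the 20 genes with the largest and the 20 with the smallest ratios (y axis) in CD30low (open) and CD30high (filled) Th1 cells; the dotted line marks the floor of 100. Msc and Perp in CD30low cells and Cd7 in CD30high cells lie below that line, so their folds are lower bounds.

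For description the 100 genes were sorted by hand into roles after their values had been seen, so the groups are a way of reading and carry no count of their own as a result. Transcription factors and cofactors held 7 higher and 3 lower genes. Batf3, an AP-1 family factor, was at 641 and 2044 (3.19-fold higher), the CD30low value first here and below. Msc, a basic helix-loop-helix factor, had 65.6 and 402 (at least 4.02-fold higher). Both genes were thus low or moderate in CD30low cells and clearly brighter in CD30high cells. Myb, a factor of lymphoid progenitors and of long-lived T cells, had 1536 and 3696, and its other probe sets had 337 and 1687, and 1004 and 2609. All 3 Myb probe sets were more than 2-fold apart. Mycn, of the Myc family, had 335 and 674, close to the limit. Zbtb32, a zinc finger repressor of activated lymphocytes, had 396 and 837, and Med18, a subunit of the Mediator complex, had 214 and 567. Lower were Gata3, the lineage factor of Th2 cells (1176 and 484), Tle4, a Groucho family corepressor (839 and 373), and Nacc2, a BTB domain repressor (655 and 253). All of the lower factors kept a signal above 250 in CD30high cells.

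Among secreted proteins, proteases and their inhibitors 9 genes were higher and 5 lower. Il24, a cytokine of the IL-10 family, had signals of 132 and 548, and Tnf, the inflammatory cytokine, had 121 and 328. Both were dim in CD30low cells. Tgm2, a transglutaminase that cross-links proteins, was at 420.4 and 1635 (3.89-fold higher), with further probe sets at 309 and 1099, 321 and 1159, and 167 and 589. The Tgm2 probe sets thus gave between 3.53-fold and 3.89-fold where they were bright enough to be read. Serpinf1, the pigment epithelium-derived factor, had 789 and 2289.9, and Esm1, the proteoglycan endocan, had 455 and 966. Klk1, a tissue kallikrein, and its relative Klk1b21 stayed below 400 on both arrays, with 182 and 380.4 and 124 and 313. In the other direction Ccl5, a chemokine for T cells and monocytes, had 1162 and 479 and Timp2, an inhibitor of matrix metalloproteinases, had 1407 and 678, with 5494 and 2681 for Itih5, whose family binds hyaluronan in the matrix. The other Itih5 probe sets, with 1538 and 779, and 3361 and 1400, were lower in CD30high cells too. Scg5, a chaperone of the prohormone convertases, had 492 and 240.2.

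Surface receptors and surface enzymes split 7 to 3. Tnfrsf9, the costimulatory receptor 4-1BB, was at 862 and 2182, with 741 and 1392 in a second probe set. Il1r2, a decoy receptor that binds IL-1 without a signal, had 429 and 1059.8, and Procr, the endothelial protein C receptor, had 394 and 951. Cxcr4, the receptor for CXCL12, had 625 and 1479.6. These receptors were readable in both populations and between 2.37-fold and 2.53-fold brighter in CD30high cells. Alcam, an adhesion molecule that binds CD6, had 845 and 1770.4 and was higher in 3 further readable probe sets, from 1.64-fold to 2.21-fold. Adam8, a membrane-bound metalloprotease, had 699.7 and 1499. Klrc1, the inhibitory receptor NKG2A, had 293 and 616, and a second probe set had 228 and 271. Lower were Cd7, a surface protein of T cells, with 349 and 84 (at least 3.49-fold lower), Itgb3, the beta chain of the vitronectin receptor, with 1049 and 438, and Il6st, the shared signalling chain of the IL-6 family, with 777 and 386 and 570 and 281 in a second probe set.

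The largest group was that of junction, actin, microtubule and membrane scaffold genes, with 15 higher and 3 lower. Gja1, the gap junction protein connexin 43, had signals of 498 and 1503, and Perp and Mpzl2, which serve cell contacts in epithelia, had 92.8 and 361 and 188 and 611. Basp1, a membrane-attached protein of the cell cortex, had 1879.8 and 4678 and was among the brightest of the higher genes. Eps8, which caps and bundles actin, had 893 and 1892, but its second bright probe set had 946 and 1274, which is under 1.5-fold. Ermn, an actin-binding protein, had 727 and 1604 and 245 and 478 in a second probe set. Stx11, a syntaxin needed for the release of cytotoxic granules, had 319 and 688. For Jpt1 (2762 and 9736) the other bright probe sets had 5202 and 5528, and 4579 and 5079, and for Fscn1 (108 and 376) another had 173 and 166, so these 2 differences rest on 1 probe set each. Iqgap3, a scaffold of dividing cells, had 157 and 394 and Krt18, a simple epithelial keratin, 143 and 318. On the lower side stood Myo6, the myosin that moves toward the minus end of actin filaments (1782 and 520.4), Pdlim5, an actin-associated PDZ and LIM protein (438 and 167), and Rflnb, a filamin partner (689 and 266). The other Myo6 probe sets stayed under 300, with 258 and 104 in the brightest of them.

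Enzymes of metabolism counted 9 higher and 4 lower genes. Gpd2, the mitochondrial glycerol-3-phosphate dehydrogenase, had 462 and 1012 and 292 and 600 in a second probe set. Shmt1, the cytosolic serine hydroxymethyltransferase of one-carbon metabolism, had 496 and 1065, and 2 further probe sets had 343 and 606, and 367 and 660. Me1, the cytosolic malic enzyme that makes NADPH, had 361 and 737, and Gatm, which starts creatine synthesis, had 369 and 829. These 4 genes lay between 2.04-fold and 2.25-fold. Selenbp1, a methanethiol oxidase, had 727 and 1514 and 752 and 1490 in a second probe set, and the aldo-keto reductase gene Akr1b8 had 234 and 510.4. Other members of the one-carbon list did not follow Shmt1, since Shmt2 had 961 and 1035, Mthfd2 had 2061 and 2047 and Psph had 2335 and 1584. Lower were Pde2a, a phosphodiesterase for cyclic AMP and cyclic GMP (5044 and 1611), Acss1, the mitochondrial acetyl-CoA synthetase (989 and 485), and 2 enzymes of the glycan coat. Of these St3gal6, a sialyltransferase, had 1181 and 408 with 792 and 294, and 458 and 160, in other probe sets, and Hs3st3b1, which sulfates heparan sulfate, had 443 and 135. Other probe sets of Hs3st3b1 were near or below 100, and Pde2a had 834 and 347 in one probe set and 429 and 346 in another.

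Intracellular signalling genes were higher in 4 and lower in 5 cases. Inpp5d, the lipid phosphatase SHIP1, had 558 and 1131, and Rapgef5, an exchange factor for Rap GTPases, had 214 and 564. Lower were Txk, a Tec family kinase of the T cell receptor pathway (1368 and 508), Rgs10, which shortens G protein signals (5870.4 and 2868), the pseudokinase gene Trib2 (3671 and 1495), Sh3bp5 (4388 and 2104) and Tbc1d4, a Rab GTPase activator that holds back glucose transporters (2146 and 933). These lower genes were bright, with 4 of the 5 above 2000 in CD30low cells. Second probe sets had 1849 and 708 for Sh3bp5, 544 and 255 for Trib2, and 311 and 206 for Tbc1d4.

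All 5 transporter and channel genes were lower. They were Aqp9, a channel for water and glycerol (2142 and 895), Ank, which exports pyrophosphate (2469 and 1129), Slc43a2, a carrier of neutral amino acids (675 and 271), Tmem175, a potassium channel of lysosomes (429 and 203), and Calhm6, of the calcium homeostasis modulator family (829 and 280.0). Aqp9 had a second probe set at 607 and 312. Mlkl, the executor of necroptosis, was higher (320.2 and 648), while Nod1, a sensor of bacterial cell walls (991 and 487), and the interferon-induced gene Rtp4 (503 and 127) were lower. The remaining 18 genes belonged to none of these roles. Rps27 (359 and 1067) and Rpl39 (191 and 556) among them encode ribosomal proteins and had only 1 probe set each, and Mylip, a ubiquitin ligase for the LDL receptor, had 2641 and 1286.

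Of the 100 genes, 36 belonged to any of 61 lists of pathways and families, against 16.04% of all tested genes. One of the lists held the 10 genes followed by qRT-PCR, which the study had chosen on these arrays. The lists were used to look at smaller differences shared by many genes. These lists were chosen with earlier results of these data known. A median needed 5 tested members and was available for 59 lists, 28 above and 31 below 0. For reading them, the median over all genes was -0.03, 46.1% of genes had a ratio above 1 and 53.9% below, and the share past 1.5-fold was 4.04% upward and 3.57% downward.

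Genes of cell division were mostly brighter in CD30high cells. Of 40 mitosis and spindle genes, 39 were brighter in CD30high cells (97.5%), with a median log2 ratio of 0.36 and 7 past 1.5-fold, of which Kif18a passed 2-fold. Kif18a, a kinesin that trims spindle microtubules, had 322 and 676, Ttk, a kinase of the spindle checkpoint, had 760.2 and 1250.1, and Kif23 and Ect2, which build the cleavage furrow, had 1269 and 2066 and 1356 and 2197. Plk1, a master kinase of mitosis, had 993 and 1519. The exception was Cdc25b, a phosphatase that activates cyclin-dependent kinases, with 2581 and 2115. Differences were smaller for bright members such as Ccnb2 (4568 and 5305) and Birc5 (6664 and 7617).

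DNA replication genes were brighter in 34 of 37 cases (median 0.26), with 4 past 1.5-fold. Rfc3, a subunit of the clamp loader, had 782 and 1498, the helicase subunit Mcm6 had 4784 and 8428, the primase subunit Prim2 had 988 and 1611 and Pole, the leading strand polymerase, had 929.6 and 1419. Rpa1, which coats single-stranded DNA, went the other way with 17184 and 13960. G1/S regulators had a median of 0.24 with 17 of 20 above 0, among them Ccne2 (1169 and 1900.2) and E2f8 (808 and 1215), while the inhibitor Cdkn1b had 2655 and 2308. Medians were 0.25 for DNA repair genes (20 of 23 above 0), 0.23 for histones and chromatin proteins of dividing cells (18 of 19), 0.22 for nucleotide synthesis (15 of 20) and 0.22 for condensin and cohesin (15 of 20). The condensin subunit Ncaph had 2894 and 5255, and the histone methyltransferase Ezh2 had 4243 and 6527. A second bright Ncaph probe set had a log2 ratio of -0.02 and did not show the difference. In a single gene a ratio of this size would be about the probe set SD of 0.226. That SD does not gauge the error of a median, which was not tested. The members of a list share the same 2 arrays and are not replicates.

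Promoters are shown for members of these lists because such genes are known to share short control elements. The CHR element (TTTGAA, on either strand) is bound by the DREAM and MuvB complexes at genes of late cell cycle, and E2F factors bind TTTCGCGC or TTTGGCGC at genes of S phase. The sequences are from RefSeq on GRCm38.p6, 5′ to 3′ on the gene's own strand, and cover 250 bases before to 50 after the start of the gene. Capitals mark the matches, which overlap for 2 of the 3 in Mcm6.
Ttk promoter (chr9:83834439-83834738, plus strand, CHR): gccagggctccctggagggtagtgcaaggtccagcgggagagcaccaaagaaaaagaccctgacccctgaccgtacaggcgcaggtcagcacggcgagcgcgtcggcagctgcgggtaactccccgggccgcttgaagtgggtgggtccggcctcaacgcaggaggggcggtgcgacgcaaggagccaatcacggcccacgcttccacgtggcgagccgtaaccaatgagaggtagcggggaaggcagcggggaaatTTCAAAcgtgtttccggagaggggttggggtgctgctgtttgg
Kif23 promoter (chr9:61946750-61947049, minus strand, CHR): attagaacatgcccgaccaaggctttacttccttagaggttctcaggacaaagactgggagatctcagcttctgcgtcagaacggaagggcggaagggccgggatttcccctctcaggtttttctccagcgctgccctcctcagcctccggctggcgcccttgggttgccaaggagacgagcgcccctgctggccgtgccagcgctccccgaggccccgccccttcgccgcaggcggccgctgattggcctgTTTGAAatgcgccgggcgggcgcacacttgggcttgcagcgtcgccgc
Rfc3 promoter (chr5:151651159-151651458, minus strand, E2F): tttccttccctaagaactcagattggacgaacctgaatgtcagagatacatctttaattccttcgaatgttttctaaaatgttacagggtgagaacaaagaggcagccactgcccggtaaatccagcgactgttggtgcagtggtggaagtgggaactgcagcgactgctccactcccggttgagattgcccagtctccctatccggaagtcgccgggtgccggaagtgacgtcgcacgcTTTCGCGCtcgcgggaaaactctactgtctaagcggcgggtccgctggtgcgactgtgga
Mcm6 promoter (chr1:128359656-128359955, minus strand, E2F): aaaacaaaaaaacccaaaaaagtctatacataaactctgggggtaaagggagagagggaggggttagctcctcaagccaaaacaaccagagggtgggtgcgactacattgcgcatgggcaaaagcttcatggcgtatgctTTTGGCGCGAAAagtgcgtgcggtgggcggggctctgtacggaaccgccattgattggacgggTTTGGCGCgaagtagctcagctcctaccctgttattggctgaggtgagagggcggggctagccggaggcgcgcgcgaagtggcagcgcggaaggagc

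A promoter was available for 6442 of the tested genes. A CHR letter match was found in 25 of 34 promoters of the mitosis list (73.5%) and in 12.2% of all, and an E2F match in 9 of 30 promoters of the replication list (30%) and in 1.91% of all. Shares among the 2-fold genes were below those of CHR in the mitosis list and of E2F in the replication list. The E2F share of the higher genes was nonetheless above that of all tested genes. Of 51 promoters of higher genes 5 held CHR (9.8%) and 4 held E2F (7.84%), and of 30 promoters of lower genes 2 held CHR (6.67%) and 0 held E2F. An NF-kappaB match was found in 6 of the 51 (11.8%), 5 of the 30 (16.7%) and 9.78% of all. AP-1 (TGANTCA) was matched in 3 of 51 (5.88%), 0 of 30 and 4.38% of all, and the T-box letters TCACACC in 4 of 51 (7.84%), 1 of 30 (3.33%) and 3.14% of all. Sets of this size hold few matches, a match is a run of letters and not a bound site, and the differences between shares were not tested.

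**Figure D3:**
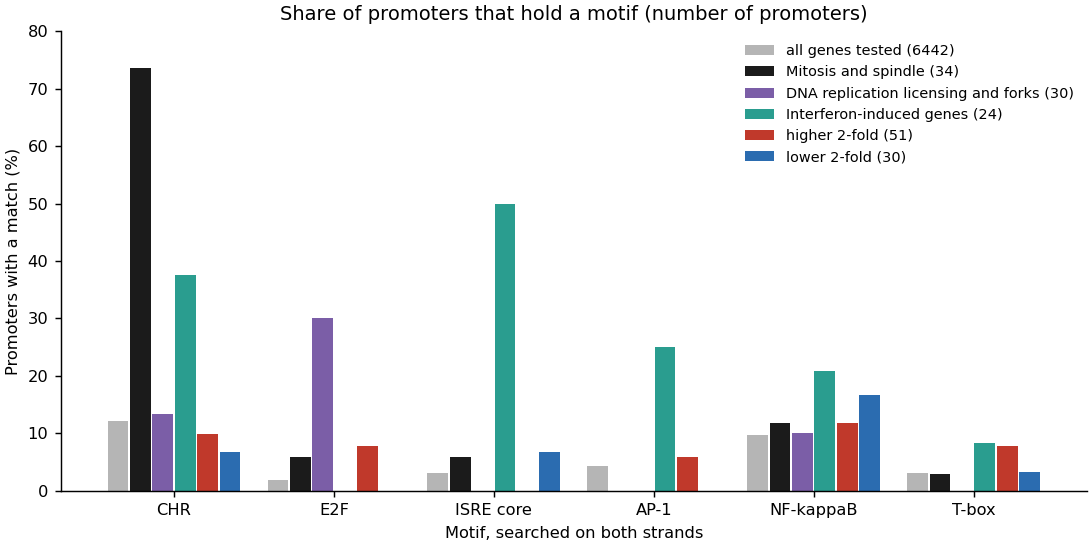
Bars give the share of promoters (y axis, %) that hold each motif (x axis) for all tested genes, 3 gene lists and the genes at least 2-fold higher or lower in CD30high Th1 cells, with the number of promoters in brackets. The tallest bars are CHR in the mitosis list (73.5%), the interferon element in the interferon list (50%) and CHR in the interferon list (37.5%), and the 2-fold genes stay near the grey bars for CHR.

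Energy and RNA metabolism were shifted less. Glycolysis and hypoxia response genes had a median of 0.20 with 21 of 27 above 0, led by Hk2, the hexokinase of growing cells (1753 and 2923), and Mxi1 (2689 and 3909). For Mxi1 a second bright probe set was near equal, with a log2 ratio of 0.05. The bright enzymes of the pathway hardly differed, with 30814 and 31217 for Ldha and 48063 and 43900.1 for Pgk1. Splicing factors had a median of 0.13 (26 of 33 above 0), with Snrpf at 4610.2 and 7876. The list of cytosolic ribosomal proteins had a median of -0.12 with 31 of 39 below 0, for example Rps4x with 63756 and 51266, and 8 above 0, of which Rps27 was furthest with 359 and 1067. Rpl39, with 191 and 556, was not among the members of this list. The list of respiratory chain genes had a median of -0.09, with 41 of 59 below 0 and none past 1.5-fold. Its largest log2 ratio was 0.25. The cytochrome oxidase gene Cox6b2, with 228 and 500, was not among its members, nor was an Ndufb gene with a log2 ratio of 0.72. No gene with a Cox or Ndufb symbol passed 1.5-fold downward. Genes of any function with a mean signal of 6400 or more had a median of -0.06. Proteasome subunits (18 of 36 above 0, median 0.01), tRNA synthetases (10 of 19, 0.01), nucleolar ribosome biogenesis genes (24 of 41, 0.04) and chaperones of the endoplasmic reticulum (13 of 24, 0.04) were spread around 0. Housekeeping genes had a median of -0.05 with none of 12 past 1.5-fold.

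**Figure D4:**
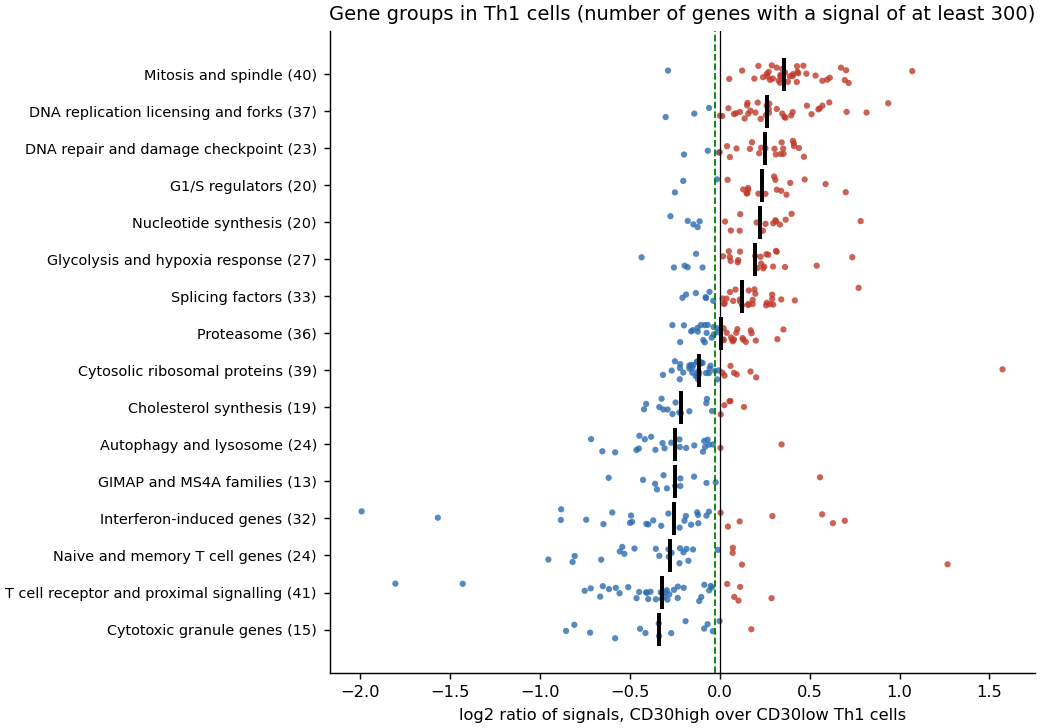
Each point is the log2 ratio (x axis) of 1 gene of the list named on the y axis, red above 0 and blue below, with the number of tested genes in brackets; black bars are list medians and the green dashed line is the median of all tested genes (-0.03). Medians run from 0.36 for mitosis and spindle genes to -0.34 for cytotoxic granule genes, and the points of most lists overlap those of the others.

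Several lists of genes that mark T cell function leaned the other way. Others did not lean as far, with medians of 0.10 for activation receptors of T cells (9 of 14 above 0) and -0.09 for the Th1 program (6 of 14). Of 15 cytotoxic granule genes, 14 were dimmer in CD30high cells (median -0.34), 3 of them past 1.5-fold. Ctsw, a cathepsin of cytotoxic cells, had 5960.5 and 3299, Serpinb6b, which shields cells from granzymes, had 3069 and 1754, and Fasl, the ligand that triggers death through Fas, had 1380.4 and 838. The granzymes themselves were very bright and close to equal, with 49398 and 43328 for Gzmb and 7385 and 8346 for Gzma. The marker signals of CD8 T and NK cells given above moved in the same direction as this list, and their part in it was not tested.

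Genes of the T cell receptor and its proximal signalling were dimmer in 36 of 41 cases (median -0.32), with 7 past 1.5-fold. Besides Cd7 and Txk these included the adaptor gene Lat (7617 and 4809), the Src family kinase gene Fyn (4587 and 2792), the phosphatase gene Ptpn6 (4988 and 3180.4) and Cd96 (3593 and 2137), a receptor for nectins. Coreceptor and receptor-associated genes differed less, with 731 and 773 for Cd4 and 12473 and 12842 for Thy1, and Trat1 was brighter (4814 and 5881). In the list of naive and memory T cell genes 20 of 24 were dimmer (median -0.27), among them Cd27, a costimulatory receptor (2063 and 1067), and the quiescence factors Foxp1 (2615 and 1484), Klf3 (3114 and 1782) and Foxo1 (2924 and 1853). For Foxo1 a second bright probe set differed less, with a log2 ratio of -0.25. Myb belonged to the list of naive and memory T cell genes and was the 1 member past 1.5-fold upward. Cyclic nucleotide and calcium signalling genes had a median of -0.18 (21 of 27 below 0), with Camk4 (3736 and 2458) and Stim1 (973 and 679) beside Pde2a. A second bright Camk4 probe set was near equal, with a log2 ratio of -0.03.

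GIMAP GTPases, which support lymphocyte survival, were dimmer in all 8 tested members, from 10711 and 6986 for Gimap6 to 5172 and 4918 for Gimap9. Together with the MS4A family 12 of 13 were dimmer (median -0.25), and Ms4a6d was the exception (1072 and 1578). Autophagy and lysosome genes were dimmer in 22 of 24 cases (median -0.25), such as Atg16l1, which directs the conjugation of LC3 (732 and 446), and the cathepsin gene Ctsl (3191 and 2134), while Grn was brighter (4974 and 6315). Cholesterol synthesis genes had a median of -0.21 with 14 of 19 below 0, and none reached 1.5-fold. Fdps (6689 and 4999) and the regulator gene Srebf2 (1723 and 1299) had the largest differences.

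Interferon-induced genes were dimmer in 25 of 32 cases (median -0.25), with 7 past 1.5-fold downward and 2 upward. Rtp4 and Calhm6 were followed by Samd9l (1194 and 648), an antiviral factor, the Schlafen gene Slfn2 (8897 and 4831) and the GTPase gene Iigp1 (2682 and 1604). For Iigp1 a second bright probe set differed less, with a log2 ratio of -0.22. Bst2, which tethers budding viruses, had 868 and 1406, and the exonuclease gene Isg20 had 1297 and 2007, so these 2 were brighter. The guanylate-binding protein genes Gbp7 (11334 and 12244) and Gbp6 (2975 and 2987) stayed near equal, although a second bright Gbp6 probe set had a log2 ratio of 0.48. The core of the interferon-stimulated response element, a pair of GAAA runs with any 2 bases between them on either strand, was matched in 12 of 24 promoters of this list (50%) and in 3.04% of all. It was matched in 2 of 30 promoters of lower genes (6.67%), those of Calhm6 and Nsg2, and in 0 of 51 of higher genes. Promoters are printed to show the element in each orientation, in capitals, for Calhm6, a 2-fold gene, and Ddx58, the RNA sensor RIG-I, on the same build and window as above.
Calhm6 promoter (chr10:34127923-34128222, minus strand): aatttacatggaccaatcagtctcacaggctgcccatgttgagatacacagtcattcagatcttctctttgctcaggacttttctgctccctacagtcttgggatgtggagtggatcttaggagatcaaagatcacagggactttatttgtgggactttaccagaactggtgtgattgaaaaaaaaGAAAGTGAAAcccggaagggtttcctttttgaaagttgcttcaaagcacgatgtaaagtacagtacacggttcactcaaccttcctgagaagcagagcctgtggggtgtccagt
Ddx58 promoter (chr4:40239776-40240075, minus strand): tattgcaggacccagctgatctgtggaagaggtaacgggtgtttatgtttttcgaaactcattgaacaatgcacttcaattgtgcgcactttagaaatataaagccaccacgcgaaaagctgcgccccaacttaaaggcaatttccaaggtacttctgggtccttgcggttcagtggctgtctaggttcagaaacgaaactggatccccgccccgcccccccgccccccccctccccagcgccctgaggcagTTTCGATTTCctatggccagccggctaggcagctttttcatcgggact

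The Ddx58 signals were 1072 and 764, so a match alone did not go with a 2-fold difference.

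Cytokine genes were mixed, with 8 of 12 above 0 and a median of 0.18. Lta, a TNF family cytokine of lymphocytes, had 928 and 1832, just under 2-fold, next to Il24 and Tnf. Ifng, the cytokine that defines the lineage, had 2506 and 3423, and Il16 had 3345 and 2318. Among cytokine receptor chains the median was -0.16 (15 of 23 below 0). The IL-12 receptor genes Il12rb1 (433 and 685) and Il12rb2 (269 and 394) and Il2ra, the high-affinity chain for IL-2 (4495 and 5956), were brighter, and the interferon receptor gene Ifnar1 (1344 and 943) was dimmer. In the JAK and STAT pathway the list was balanced, 9 of 20 above 0, but single members were not. Cish, a feedback inhibitor induced by IL-2 through STAT5, had 1139.7 and 2151, whereas Socs3, another feedback inhibitor, had 6282 and 3522, Stat4 had 5234 and 3274 and the kinase gene Pim2 had 6947 and 3944. Cish was thus brighter and the other 3 dimmer, each past 1.5-fold. The homing receptor genes Cxcr6 (15523 and 8235) and Cxcr3 (4277 and 2612), typical of Th1 cells, were dimmer, and Cxcr4 was the brighter one.

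Among BATF, IRF and AP-1 factors 9 of 18 were above 0 (median 0.01). Batf3 was joined past 1.5-fold by Jdp2 (226 and 398), Irf8 (1031 and 1641) and Junb (384 and 607), and Batf itself had 2342 and 1835. A second bright Irf8 probe set had a log2 ratio of -0.01 and did not show the difference. The phosphatase gene Dusp4 had 911 and 1514 and Myc, a driver of growth, 2212 and 3323, while Dusp10 had 789 and 514. The metallothionein genes Mt1 and Mt2, which buffer zinc, had 9336 and 17351 and 8118 and 13734. The sialic acid genes St8sia1 (3862 and 2107) and Cmah (1503 and 901) were dimmer like St3gal6, although the list of glycan enzymes as a whole was even, with 15 of 31 above 0 and a median of -0.02.

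Families were also formed from gene symbols alone, by the letters before the first digit, which no functional list decided. Of 189 families with at least 6 tested genes, the highest medians were those of Mcm (0.34, 9 of 10 above 0), Casp (0.30, 4 of 6), Kif (0.28, 15 of 19), Smc (0.23, 5 of 6), Nup (0.23, 18 of 18) and Rad (0.22, 8 of 11). Nup genes encode nucleoporins of the nuclear pore, and they ran from 6269 and 6303 for Nup153 to 924 and 1443 for Nup85. Second bright probe sets of Nup153 and Nup50 were below 0, with log2 ratios of -0.19 and -0.09. The lowest medians were those of Zkscan (-0.35, 1 of 6 above 0), Pip (-0.31, 1 of 7), Pde (-0.29, 2 of 7), Atg (-0.28, 4 of 14), Gimap (-0.27, 0 of 8) and Chmp (-0.27, 0 of 9). Chmp genes encode ESCRT-III subunits, which cut membrane necks, and ran from 1249.8 and 725 for Chmp6 to 4817 and 4697 for Chmp5. For Chmp1b a second bright probe set was above 0, with a log2 ratio of 0.34, so such one-sided counts depend on the probe set read. A symbol stem can join unrelated genes, and with 189 families some one-sided ones arise in any pair of arrays.

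The Th17 pair shares no array with the Th1 pair, and its values are set beside the 100 Th1 genes as a description. The Y-linked genes present on the Th1 arrays were below 100 on the Th17 arrays, where Eif2s3y had 1.41 and 9.39, Kdm5d 21.8 and 3.98 and Uty 9.29 and 2.31. The 2 pairs thus also differed in sex-linked transcripts, which cannot be told apart from their difference in lineage. Of 7786 genes tested in Th17 cells, 592 were 2-fold apart (7.6%), with 307 higher (3.94%) and 285 lower (3.66%). Of the 62 genes higher in CD30high Th1 cells, 27 were also higher 2-fold in CD30high Th17 cells, which is 43.5% of the Th1 genes and 8.79% of the Th17 genes. Of the 38 lower genes 22 were lower in both, which is 57.9% and 7.72%. Another 13 higher and 13 lower genes did not reach 300 in Th17 cells. In 24 of the 62 and 22 of the 38 the ratio was larger in Th17 than in Th1 cells. The 10 genes the study followed by qRT-PCR, Tgm2, Msc, Serpinf1, Batf3, Il24, Rapgef5, Myb, Myo6, Rtp4 and Calhm6, passed 2-fold in the same direction in both pairs, and the study had chosen them on these arrays.

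Levels differed even where direction did not. Tgm2 was at 11421 and 23867 in the Th17 pair and 420.4 and 1635 in the Th1 pair, so its brighter Th1 signal stayed below the dimmer Th17 signal. Il24 had 1257 and 5672 there and 132 and 548 in Th1 cells. Myo6 went from 10494 to 273 in Th17 cells, against 1782 and 520.4 in Th1 cells, and Procr (784 and 9902), Mycn (143 and 1490.1), Itih5 (2017 and 154) and Itgb3 (958 and 39.5) were also further apart in Th17 cells. Other genes were 2-fold apart in Th1 but not in Th17 cells, where Tnfrsf9 had 1142 and 1507, Tnf 925 and 784, Shmt1 639 and 736, Inpp5d 1024 and 806 and Pde2a 565 and 489. Ccl5, St3gal6, Nod1 and Cd7 were below 300 on both Th17 arrays and had no ratio there to compare. Esm1 too was below 100 there (13.2 and 3.41). Whether any difference between the 2 pairs exceeds their error was not tested, as no group had a second array.

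Gene lists of cell division pointed in opposite directions in the 2 lineages. The mitosis list was above 0 in 39 of 40 genes in Th1 cells and in 0 of 40 in Th17 cells, where 51.2% of all genes were above and 48.8% below 0. In Th17 cells its median was -0.39 and Ttk had 1735 and 1176. Other lists lay below 0 in both lineages, with Th17 medians of -0.65 for cytotoxic granule genes, -0.51 for T cell receptor signalling, -0.59 for interferon-induced genes and -0.66 for the GIMAP and MS4A families. Autophagy and lysosome genes were near 0 in Th17 cells (-0.06), and glycolysis genes were alike in both (0.19 in Th17 cells).

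**Figure D5:**
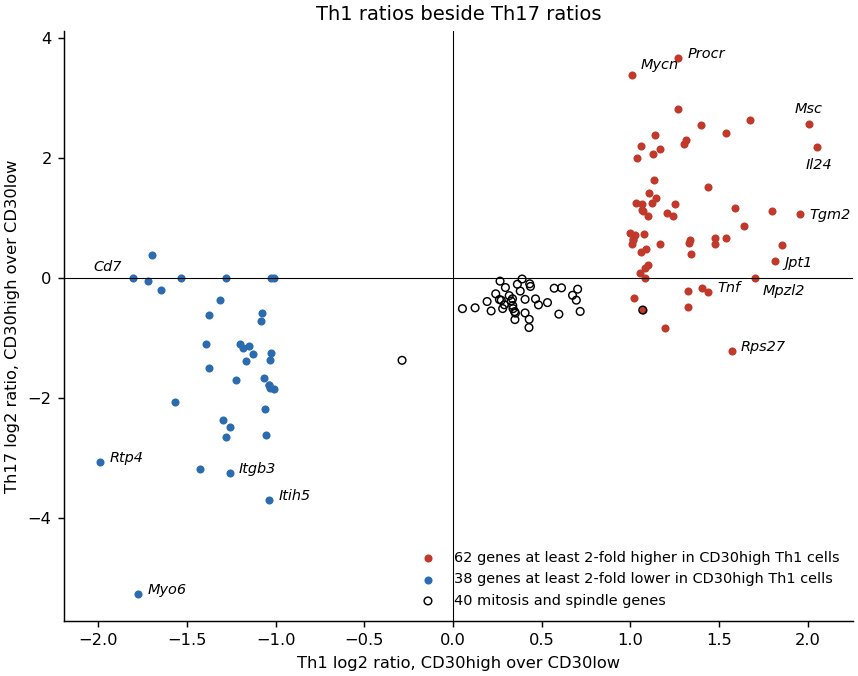
Log2 ratios in Th1 (x axis) and Th17 cells (y axis) of the 62 higher (red) and 38 lower (blue) Th1 genes and of 40 mitosis and spindle genes (open circles). Most coloured points lie in the upper right and lower left, Rps27 is the red point furthest below 0, and 39 of 40 open circles lie to the right of 0 while none lies above 0; coloured points at 0 on the y axis are mostly genes dimmer than 100 on both Th17 arrays.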

How the data were processed

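RNA from CD30low and CD30high Th1 cells, and from the same gates of Th17 cells, was hybridized to whole-genome mouse arrays of Affymetrix, 1 array a group. The authors deposited linear intensity values for 45037 probe sets, made with the GeneChip Operating Software by the methods and with Affymetrix Expression Console by the submitters' processing notes. Algorithm and scaling target are not given in the sources used here. Trimmed by 2% at each end, the array means lay between 496.6 and 497.0, so the values had been scaled to 1 target and a shift of the whole transcriptome cannot be seen. No detection calls were used.

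Symbols came from the platform annotation, updated through gene identifiers to a RefSeq table. A single symbol was given for 34945 probe sets (34741 matched), several for 932 and none for 9160. Each of 18193 genes was read by its brightest probe set (mean of all 4 arrays), signals below 100 were set to 100, and log2 ratios were taken for 7813 genes with at least 300 on the brighter Th1 array. A difference of 2-fold, or 1.5-fold, was counted, as the study's legend gives this range. With 1 array a group there is no test, and the number of arrays limits the precision. The genes at 2-fold, Tnfrsf8, the qRT-PCR genes and the members of lists with the largest ratios or signals were named. Members and lists were chosen with earlier results of these data known; the 61 lists held 1591 distinct entries, 141 of them not named in the annotation. Promoters were searched for fixed letters on both strands, in the first RefSeq entry of a gene; 81 of the 100 genes had one. Python 3.11.15, numpy 2.4.6, pandas 2.3.3 and matplotlib 3.10.9 were used.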

Additional observations from a re-analysis of the deposited data

Results flagged for a closer look

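Rps27 had a log2 ratio of 1.57 in Th1 cells and -1.22 in Th17 cells, with signals of 359 and 1067 and of 653 and 281, the only gene past 2-fold in opposite directions in the 2 pairs; the difference was not tested and rests on 1 probe set. Lists with at least 75% of members above 0 in 1 pair and below 0 in the other were the mitosis and spindle list (median 0.36 in Th1 and -0.39 in Th17 cells), condensin and cohesin (0.22 and -0.31), histones and chromatin proteins of dividing cells (0.23 and -0.21) and cytosolic ribosomal proteins (-0.12 and 0.05). These differences between the pairs were not tested either, and the members of a list are not replicates.

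A signal also appeared in probe sets outside the comparison of named genes. Of 1546 probe sets with no single gene name and a signal of at least 300, 34 were 2-fold apart in Th1 cells (2.2%), 28 higher and 6 lower in CD30high cells. The largest difference among them was between 60.4 and 592, and the brightest lower one had 1943 and 890.4.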

How the results depend on the processing

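No paired analysis was possible because no group had more than 1 array, and leaving out a replicate was not possible for the same reason. Background correction and the slide could not be varied, since only processed signals were used. Against 62 higher and 38 lower genes, a lower signal limit and no limit at all each gave 114 higher, with 57 lower. A fold limit of 1.5 gave 316 and 279, and a limit of 3 gave 10 and 6. The other settings moved each count by less than 1.5 times: from 42 (signal limit of 500) to 66 (median centring) higher and from 29 to 48 (quantile normalization) lower. Of the 100 genes, 38 passed under every one of 12 settings. A gene with no probe set left in a setting counted as not passing. Leaving out probe sets shared between transcripts removed 21 genes, among them Il24, Tgm2, Myb, Procr, Txk and Tnfrsf9. Each of the 21 had been read by a probe set of that kind, and how many had none left was not counted. The log2 ratio of Fscn1 then was -0.065 in place of 1.80. With the mean of a gene's probe sets 24 genes were under the rule, Jpt1, Serf1 and Ighm among them. Of 59 list medians none moved by as much as the probe set SD of 0.226, but 13 changed sign under at least 1 setting, each of them within 0.048 of 0 as reported. Dim signals limit the ratios, since 39 of the 100 genes stayed under 600.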

Other observations

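Targets of p53 had a median log2 ratio of 0.18 in Th1 cells, with 9 of 15 genes above 0 (46.1% of all genes were). Perp had signals of 92.8 and 361, the nuclease gene Aen (885 and 1242), Zmat3 (1071 and 1633), the cell cycle inhibitor gene Cdkn1a (2928 and 4064) and the p53 antagonist Mdm2 (1209 and 1660.2) were brighter in CD30high cells, and Sesn1 (3167 and 2256) and Trp53inp1 (23166 and 15389.7) were dimmer. Targets of the stress factor ATF4 were divided likewise, with 7 of 12 above 0 and a median of 0.18; the amino acid carrier gene Slc7a5 had 1137 and 1600.3 and the pseudokinase gene Trib3 had 514 and 367. Zinc exporters of the Slc30 family differed from the metallothioneins, with 4036 and 2835 for Slc30a4 and 1583 and 1105 for Slc30a7. Fabp5, a fatty acid carrier, had 10145 and 13598.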
